A study of Xenopus laevis with 6 samples.

Results

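Chaperones and protein folding enzymes are represented here by 158 probe sets of 32634 on the array, chosen by the gene symbol that the platform annotation gives them. The rule took symbols that begin with the letters of the heat shock proteins (hsp followed by a digit or by a, b, d, e or h), dnaj, cct with a digit, tcp1, pdia, tmx, txndc, fkbp, bag with a digit, canx or calr. Of these, 156 carry 1 gene symbol and cover 120 genes, and the other 2 carry both homeologs of a gene, hspa5 in one and tcp1 in the other. Xenopus laevis arose by genome doubling and keeps many genes as a pair of homeologs, marked .L for the copy on the longer and .S for the copy on the shorter chromosome of a pair. By known location of the proteins, 91 probe sets were placed in the cytosol (including the nucleus), 50 in the ER and 14 in mitochondria. The other 3 (hspb11.L, hspbap1.L and tcp11l1.L) were placed in none, and tcp11l1.L matched by its letters alone.

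Chaperones bind newly made or unfolded proteins and help them reach their folded shape. In the cytosol this work is shared by the HSP70 and HSP90 proteins, by the J proteins that stimulate HSP70, and by the ring-shaped chaperonin CCT, which folds actin and tubulin. Secreted and membrane proteins, among them the ligands and receptors that pattern the gastrula, fold in the endoplasmic reticulum (ER). There the HSP70 protein BiP, lectin chaperones and protein disulfide isomerases act, and FKBP and cyclophilin proteins turn proline bonds. Mitochondria hold their own HSP70 and a chaperonin built from HSP60 and HSP10.

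Xenopus laevis embryos received 10 ng of a morpholino (MO) in each dorsal blastomere when they had 4 cells. A morpholino is an antisense oligonucleotide that blocks translation or splicing of an RNA. One group received a control MO and the other an MO against apcdd1, which encodes a membrane inhibitor of Wnt and BMP signals. At stage 10.5, after growth at 16 degrees C, the dorsal side was cut off and pooled in batches of 10 embryos, with 3 batches and 3 arrays per group. Only the depleted embryos carried a dye mark on their ventral side, because in some of them the dorsal lip formed late, so dye, delay and depletion cannot be told apart. One treatment label names the apcdd1 MO for all samples, and the groups follow the genotype label. Whether the batches came from separate clutches is not stated in the sources used here, and the p-values then measure only batch-to-batch spread, which may be technical. In tissue of this kind, fewer cells of a type and less RNA per cell cannot be told apart.

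Median signals of the arrays ran from 44.4 to 45.7. The probe set of apcdd1.L itself read 314, 299.8 and 310.4 in control and 229, 252 and 258 in depleted arrays, which does not measure a block of translation. Correlations between arrays across the tested probe sets were 0.987 to 0.995 within the control, 0.993 to 0.996 within the depleted group and 0.983 to 0.988 between the groups. The ratio of 3' over 5' signal for gapdh, a measure of RNA integrity, was 1.75 to 1.81 in control and 1.82 to 1.95 in depleted arrays, and its part in the results below was not tested. Of 13 tested organizer and dorsal mesoderm markers 3 were lower and 0 higher in depleted arrays, and the summed signal of that list was 17464 to 20321 in control and 15425 to 16310 in depleted arrays. Markers of the ventral side (3 of 8 tested higher, 0 lower) summed to 3380 to 3695 and 4135 to 4401, and those of non-neural ectoderm (3 of 6 tested higher, 0 lower) to 1244 to 1484 and 1991 to 2096. The latter gap lay mostly in foxi1.L (54.2 ± 5.65 to 718 ± 30.5, SD, n = 3): without it, a choice made after its values were seen, the other 5 genes summed to 1191 to 1423 and 1267 to 1411. Of those 5, grhl3.L and grhl1.L rose, while tfap2a.L, tfap2a.S and grhl3.S were not called. Endoderm markers (1 of 6 tested lower, 0 higher) summed to 4522 to 5240 and 4444 to 5557. Of the 7 blood and muscle genes measured, 6 were left out as dim, and the other, the muscle gene myod1.L, was lower, with sums of 88.3 to 93.6 and 72.5 to 81.9 for the list. The part of these tissue differences in the chaperone results was not tested.

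Most chaperone transcripts stood within a narrow band in both groups, and a few moved, mostly down. A probe set was tested where its mean log2 signal lay at or above the 40th percentile of all, a signal of 22.3, and 133 of the 158 passed, from 104 genes. It was called where limma gave an adjusted p under 0.05 (two-sided, Benjamini-Hochberg over all 19484 tested probe sets). By this rule 8 chaperone probe sets were lower and 2 higher in depleted embryos, from 9 genes. That is 7.52% of those tested, against 6.62% of all tested probe sets, so the share called was near the background. Over all tested probe sets 3.61% were lower and 3.0% higher. The median log2 change of the chaperone probe sets was -0.02, against 0.00 over all, and 76.7% of them lay within 0.2 of zero, against 77.4%. In 34 of the 133 (25.6%) the ranges of the groups did not overlap, against a background of 24.7%. The lower count was 4 without control array 2 or depleted array 3 and 5 without depleted array 2, and the higher count was 1 without control array 1 or 2 or depleted array 3. With arrays weighted by quality it was 14 lower and 14 higher, while the count over all tested probe sets went from 1289 to 4449.

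**Figure D1:**
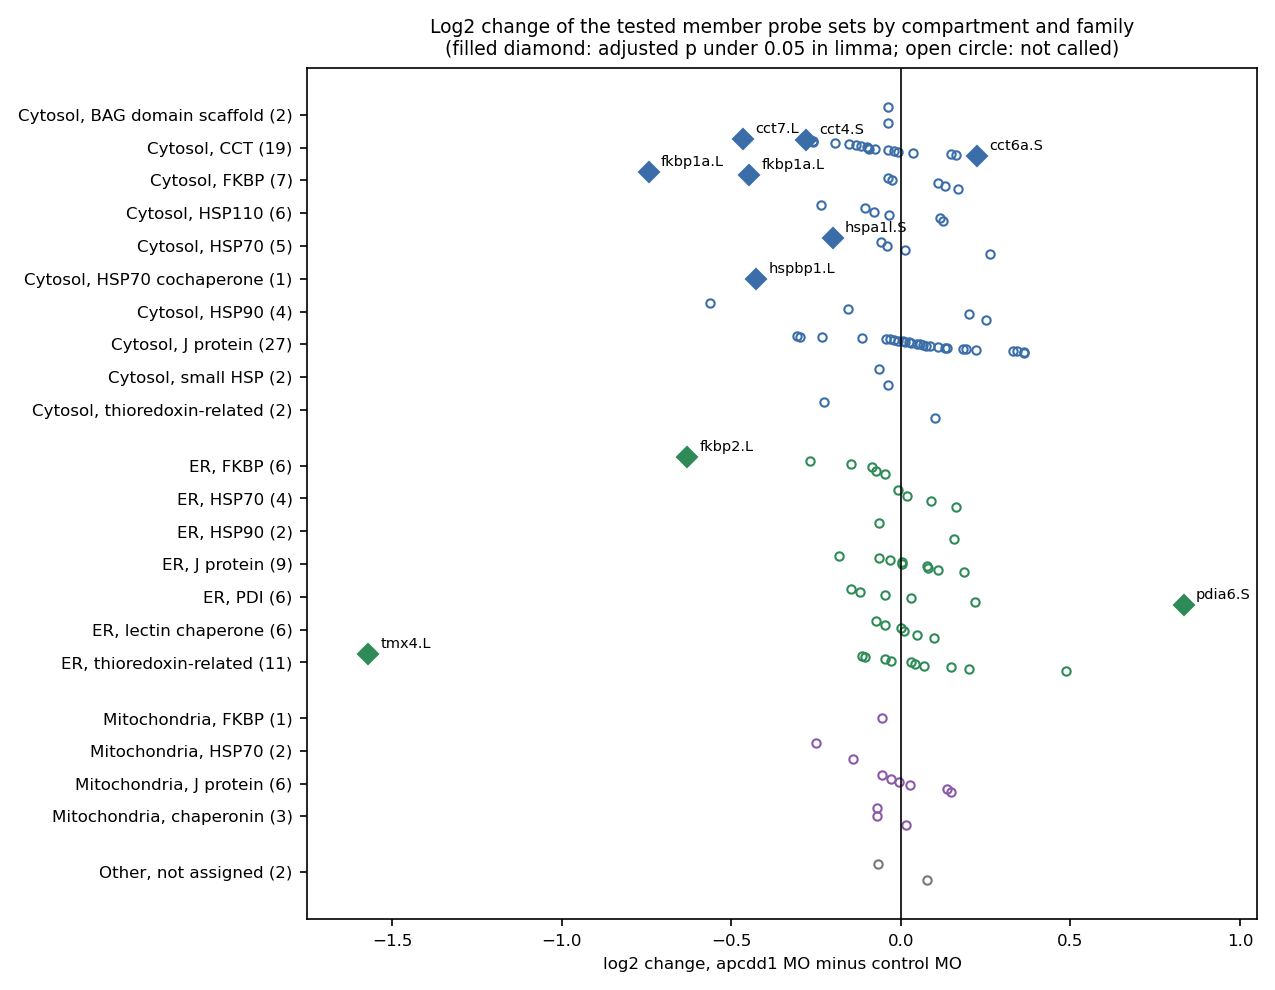
Log2 change (apcdd1 MO minus control MO, horizontal axis) of the 133 tested chaperone probe sets, one point each, in rows by compartment and protein family with the number of probe sets in brackets. Filled diamonds are the 10 probe sets with an adjusted p under 0.05 in limma; most open circles lie within 0.2 of zero, and tmx4.L at -1.57 and pdia6.S at 0.83 stand farthest out.

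In the ER, the thioredoxin-related gene tmx4.L and the prolyl isomerase gene fkbp2.L fell and the disulfide isomerase gene pdia6.S rose, while the main luminal chaperones did not pass the test. Of 44 tested ER probe sets 3 were called, 6.82%, against 6.62% of all tested probe sets. The median log2 change of the 44 was 0.00, and the groups did not overlap in 29.5%, against 24.7% of all tested probe sets. tmx4.L, which encodes a thioredoxin-domain protein of the ER membrane, read 518, 499 and 504 in the control arrays and 169, 205 and 144 in the depleted arrays. The highest depleted array thus lay far below the lowest control array. The gene was 2.97-fold lower (log2 change -1.57 ± 0.12 SE, limma adjusted p = 6.4e-05). It is measured by 1 probe set in this set, and no homeolog was measured beside it.

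pdia6.S, which encodes a protein disulfide isomerase of the ER lumen, read 593, 632 and 663 in control and 1124, 1099.8 and 1138 in depleted arrays. All 3 depleted arrays lay above every control array, and they were closer together than the controls. The increase was 1.78-fold (log2 change 0.83 ± 0.06 SE, limma adjusted p = 6.3e-05). Its homeolog pdia6.L went from 629.9, 697 and 647 to 710.2, 789 and 800.2, without overlap, but did not pass (0.22 ± 0.07 SE, limma adjusted p = 0.11).

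The other tested genes of disulfide isomerases and thioredoxin-related ER proteins were not called. pdia3.S, pdia4.L and pdia5.L had log2 changes of -0.12 ± 0.08, -0.15 ± 0.12 and -0.05 ± 0.07, and txndc5.L, another disulfide isomerase gene, one of 0.03 ± 0.07 (SE). tmx2.S, tmx3.L and tmx3.S, of the same thioredoxin-related family as tmx4.L, had changes between -0.03 and 0.07. The 3 tested probe sets of tmx1.L had changes between -0.05 and 0.20. txndc12.S, which encodes a small luminal thioredoxin-like protein, read 40.6, 42.0 and 50.2 in control and from 54.5 (array 2) to 72.2 (array 1) in depleted arrays. Its groups did not overlap, and it just missed the threshold (0.49 ± 0.13 SE, limma adjusted p = 0.056). The brighter probe set of txndc12.L went from 518 ± 20.8 to 481 ± 7.33 (SD, n = 3) and was not called either.

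fkbp2.L, which encodes a luminal prolyl isomerase, read 318, 277 and 289 in control and 195, 189.5 and 186 in depleted arrays. The groups were apart, with the depleted arrays close together. The gene was 1.55-fold lower on this probe set (log2 change -0.63 ± 0.08 SE, limma adjusted p = 0.0011). A second, dim probe set of fkbp2.L, with means of 34.4 and 33.7, had a change of -0.05 ± 0.14. All 6 tested probe sets of ER FKBP genes, from 5 genes, had negative log2 changes (median -0.12), against 9728 of 19484 over all. The 6 are not independent, since fkbp2.L counts 2 times among them. Of the 6, 1 was called (16.7%, against 6.62% of all tested probe sets). In 3 the groups did not overlap (50.0%, against 24.7% of all tested probe sets). Among those not called, fkbp10.L and fkbp11.L had all depleted arrays below the controls (-0.15 ± 0.07 and -0.27 ± 0.11). fkbp14.L went from 2939 ± 83.2 to 2771 ± 98.5 (SD, n = 3) with overlap. A further 4 probe sets of this family were left out as dim, and most of these went up. In the fit without the filter fkbp9.L changed by 0.39 (limma adjusted p = 0.079), fkbp9.S by 0.13 and -0.16, and fkbp7.L by 0.10.

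The genes for the central ER chaperones were not called in the fit with equal array weights. BiP is encoded by hspa5, whose probe sets with 1 symbol had log2 changes of 0.02 (95% interval -0.13 to 0.16) and -0.01 for hspa5.L and 0.16 (-0.03 to 0.36) for hspa5.S. For hsp90b1, the gene of the ER HSP90 protein, the L homeolog had a change of -0.06 (-0.35 to 0.22) and the S homeolog one of 0.16 (0.00 to 0.31, adjusted p = 0.26). The lectin chaperone genes calr and canx, whose proteins hold glycoproteins while they fold, had changes between -0.07 and 0.10 on 6 probe sets. Of the 9 tested probe sets for ER J proteins 0 passed in limma, with 2 (22.2%, against 19.0% of all tested probe sets) at an unadjusted p under 0.05. The 9 had changes between -0.18 and 0.19. They include dnajb9.L (-0.03 ± 0.09), dnajb11.S (-0.06 ± 0.06) and dnajc3.L (-0.18 ± 0.08), which encode J proteins that work with BiP. With arrays weighted by quality 4 more ER probe sets were called, all higher, those of hsp90b1.S (0.20, limma adjusted p = 0.013), dnajb12.S, pdia6.L and txndc12.S. That made 7 of 44 ER probe sets, against 4449 of all 19484 tested probe sets in that fit.

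**Figure D2:**
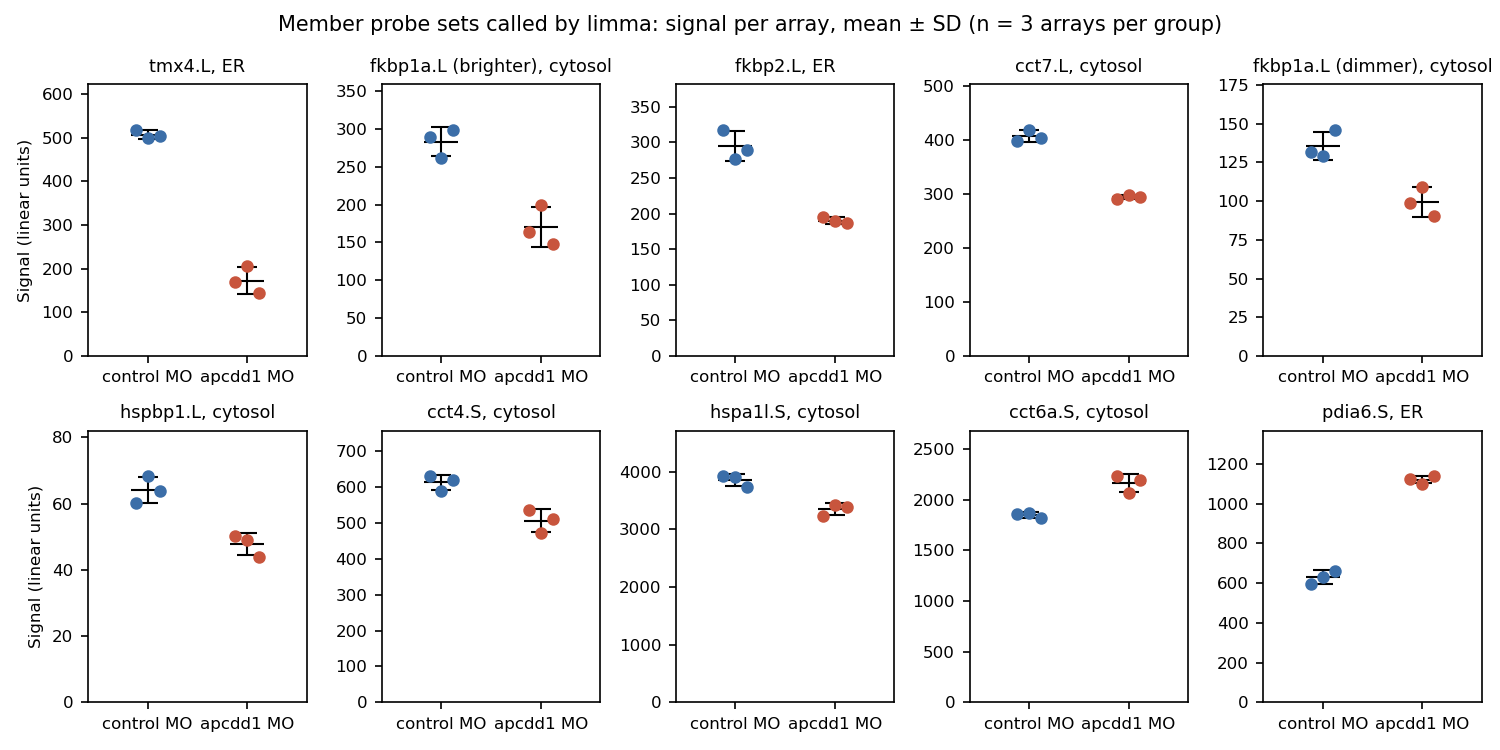
Signal (linear units, vertical axes from 0) of each of the 10 called probe sets on the 3 control and 3 apcdd1 MO arrays; points are arrays, the wide tick is the mean and bars are ± SD. The groups do not overlap in any panel: tmx4.L goes from a mean of 507 to 173 and pdia6.S from 629 to 1121, while hspa1l.S goes from 3854 to 3352.

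In the cytosol, transcripts of the prolyl isomerase gene fkbp1a.L, the chaperonin genes cct7.L and cct4.S, the HSP70 gene hspa1l.S and the HSP70 partner gene hspbp1.L fell, and cct6a.S rose. Of 75 tested cytosolic probe sets 7 were called, 9.33%, against 6.62% of all tested probe sets. Of these 7, 6 were lower and 1 higher. The median log2 change of the 75 was -0.02, and the groups did not overlap in 24.0%, against 24.7% of all tested probe sets. The number of cytosolic probe sets called was 2 without control array 2 or depleted array 3, and 4 without control array 1 or depleted array 2. fkbp1a encodes FKBP12, the target of the drugs FK506 and rapamycin, which in mammals is also known to bind type I receptors of the TGF-beta family. The brighter probe set of fkbp1a.L read 289, 262 and 299 in control and 164, 199 and 147 in depleted arrays. The dimmer one read 132, 129 and 146 against 99.0, 109 and 90.3. On both, every depleted array was below every control array, by 1.67-fold and 1.36-fold in the mean (log2 changes -0.74 ± 0.11 and -0.45 ± 0.10 SE, limma adjusted p = 0.0036 and 0.023). The call of the dimmer probe set ended when any of 4 single arrays was left out, with adjusted p up to 0.10 over all settings. The homeolog fkbp1a.S overlapped between groups, with 424, 461 and 512 against 458, 487 and 426.

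The remaining cytosolic FKBP genes were not called. Both homeologs of fkbp4, which encodes an HSP90 partner in steroid receptor complexes, had all depleted arrays above the controls, by 0.11 ± 0.06 for fkbp4.L and 0.13 ± 0.06 for fkbp4.S on the log2 scale. fkbp3.L and fkbp6.L had changes of 0.17 ± 0.10 and -0.04 ± 0.07. The 4 probe sets of fkbp1b.L and fkbp1b.S, a paralog of fkbp1a, were left out as dim.

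CCT is a double ring built from 8 different subunits, and the array measured genes for all 8, with 19 tested probe sets of 13 genes. Of these probe sets 2 were lower and 1 higher, and 15 of 19 had a negative log2 change (median -0.10), against 9728 of 19484 over all. The 19 are not independent, since cct2.S counts 3 times and cct5.S 4 times among them. The called share was 15.8%, against 6.62% of all tested probe sets. In 6 all depleted arrays lay below the controls and in 2 above, together 42.1%, against 24.7% of all tested probe sets. cct7.L read 398, 419 and 403 in control and 291, 298 and 295 in depleted arrays, a 1.38-fold fall (log2 change -0.47 ± 0.06 SE, limma adjusted p = 0.0021). The depleted arrays stood together and well below the controls. Its homeolog cct7.S read 200.2, 208 and 226 against 206, 208 and 211, with the depleted arrays inside the control range.

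For cct4 both homeologs had negative log2 changes, and 1 passed. cct4.S went from 629.7, 589.6 and 621 to 535, 472 and 510.3, without overlap (-0.28 ± 0.07 SE, limma adjusted p = 0.041). cct4.L had a change of -0.15 ± 0.07 with overlap (limma adjusted p = 0.29). In the other direction, cct6a.S went from 1862, 1873 and 1819.9 to 2232, 2067 and 2192, all above the controls (0.22 ± 0.05 SE, limma adjusted p = 0.029). The calls of cct4.S and cct6a.S were close to the threshold, and each ended when any of 5 single arrays was left out, with adjusted p up to 0.14 for cct4.S and 0.12 for cct6a.S over all settings.

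The other subunit genes were not called in the fit with equal array weights. With arrays weighted by quality, 1 probe set of cct2.S (-0.25), cct3.S (0.15) and tcp1.L (-0.14) were called (limma adjusted p = 0.0073, 0.047 and 0.044). That fit called 4449 of all 19484 tested probe sets. tcp1, the gene of the first subunit, had changes of -0.19 ± 0.06 for tcp1.L and 0.16 ± 0.07 for tcp1.S, each without overlap between groups but in opposite directions. cct2.S had changes of -0.26, -0.12 and -0.08 on its 3 probe sets, and cct8.L and cct8.S had -0.10 ± 0.07 and -0.13 ± 0.07. cct3.S was at 0.15 ± 0.07. cct5.S had changes between -0.26 and 0.04 on its 4 tested probe sets, and the gene listed as cct5b one of -0.10 ± 0.06.

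**Figure D3:**
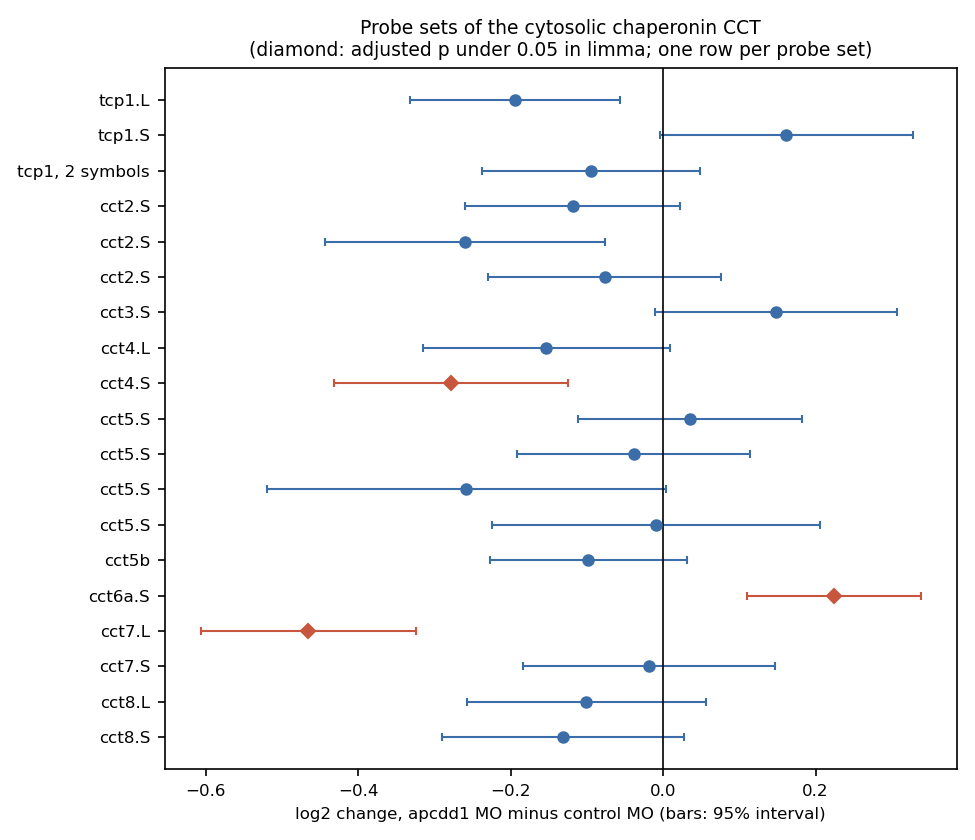
Log2 change (apcdd1 MO minus control MO, horizontal axis) with its 95% interval for each of the 19 tested probe sets of CCT subunit genes, tcp1 being the gene of the first subunit. Diamonds mark the 3 called probe sets, cct4.S and cct7.L to the left of zero and cct6a.S to the right; 15 of the 19 points lie to the left.

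HSP70 proteins bind short stretches of unfolded chains, and the J proteins and exchange factors drive their cycle. hspa1l.S read 3923, 3909 and 3729 in control and 3239.8, 3427 and 3390.3 in depleted arrays, a fall without overlap (log2 change -0.20 ± 0.05 SE, limma adjusted p = 0.030). hspa8.L, the gene of the constitutive cytosolic HSP70 protein, overlapped between groups, at 5928, 5884 and 5684 against 5586, 5747 and 5689.9 (-0.04, 95% interval -0.13 to 0.05). hsp70.L, a heat-inducible gene, read 70.6, 69.3 and 65.3 against 59.4, 66.0 and 72.0. Both probe sets of hspa1a.S and the 1 of hspa2.L were left out as dim. hspbp1.L, which encodes a nucleotide exchange factor of HSP70, went from 60.3, 68.3 and 63.8 to 50.2, 48.9 and 44.0 (-0.43 ± 0.10 SE, limma adjusted p = 0.029). The groups of hspbp1.L did not overlap. The call of hspa1l.S ended when any of 5 single arrays was left out, and that of hspbp1.L when any of 4 was, with adjusted p up to 0.14 and 0.15 over all settings.

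Genes for the larger HSP70 relatives of the HSP110 family, hspa4 and hsph1, were not called, with changes between -0.24 and 0.12 on 6 probe sets. With arrays weighted by quality 1 of these, of hspa4.S, was called lower (-0.16, limma adjusted p = 0.036). bag6.L and bag6.S, whose protein guards membrane proteins in the cytosol, were both at -0.04. Of 27 tested probe sets for cytosolic J proteins, 0 were called in limma, with 4 at an unadjusted p under 0.05 (the background of that count was 19.0%). With arrays weighted by quality 5 of the 27 were called, and over all tested probe sets that fit called 4449 of 19484. Their log2 changes were positive in 19 and negative in 8 (median 0.06), against 9756 and 9728 of all 19484 tested probe sets. The 27 come from 21 genes and are not independent, since dnajc2.S counts 3 times among them. dnajb5.S came nearest to the threshold, from 74.4, 77.8 and 66.3 to 88.1, 98.3 and 90.6 (0.34 ± 0.09 SE, limma adjusted p = 0.066). dnajc9.L, which encodes a J protein that binds histones in human cells, read 164, 151 and 138 in control and 279.8, 133 and 195 in depleted arrays. Depleted array 1 stood far above the control range and array 3 above it, while array 2 lay just below it.

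The brightest cytosolic J protein probe sets lay close to their control level. dnaja1.L, which encodes a general HSP70 partner, read 4037, 3925 and 3946 in control and 4447, 3932 and 4288 in depleted arrays (0.09 ± 0.05). dnaja2.L, dnaja2.S and dnaja4.1.L had log2 changes of -0.04, -0.02 and 0.01. Groups were apart in 4 of the 27 (14.8%, against 24.7% of all tested probe sets), upward in 3 and downward in 1. dnajc13.S, the gene of an endosomal J protein, went from 254, 229 and 234 to 206, 189 and 215 (-0.23 ± 0.08, limma adjusted p = 0.13). The brighter probe set of dnajc5g.L went from 283, 284 and 318 to 349.7, 359.5 and 322 (0.22 ± 0.08, limma adjusted p = 0.14). dnaja4.2.S went from 28.6, 29.2 and 28.1 to 43.5, 37.3 and 30.8 (0.36 ± 0.13, limma adjusted p = 0.16), with the depleted arrays far apart. With dnajb5.S, these are the 4 at an unadjusted p under 0.05.

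Small heat shock proteins hold unfolded chains without using ATP. Of their 5 probe sets, 2 were bright enough to test, hspb1.S (-0.04 ± 0.09) and hspb7.L (-0.06 ± 0.15), and those of hspb1.L, hspb6.L and hspb8.L were left out. bag3.L, the gene of a cochaperone known to be induced by heat, was left out too. In all 25 of the 158 probe sets were left out, with mean signals of 4.34 to 20.2. In the fit without the filter, 0 of these 25 passed in limma, and 3 had an unadjusted p under 0.05. Of all probe sets, bright ones included, 3.77% passed in that fit. Neither share was counted over the dim probe sets alone. For 16 of the genes of these 25 probe sets no other probe set was tested.

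The cytosolic HSP90 gene hsp90ab1.S was measured by 4 probe sets, and they disagreed. One read 635, 363 and 216 in the control arrays and 308, 324 and 361 in the depleted arrays. A second read 409, 343 and 192 against 224, 202 and 184. The third read 397, 417 and 426 against 403, 546 and 541, and the fourth 251, 244 and 268 against 249.7, 321 and 311. The first pair spread widely among the controls and the second pair among the depleted arrays, and all 4 overlapped between groups, with log2 changes of -0.16, -0.56, 0.25 and 0.20. With arrays weighted by quality 3 of the 4 were called, in opposite directions (0.30, 0.30 and -0.78, limma adjusted p = 0.014, 0.010 and 0.013). That fit called 4449 of all 19484 tested probe sets. Without depleted array 1, 1 of the 4 was called higher (0.40, limma adjusted p = 0.017). No direction can be given for this gene. In all, 19 chaperone genes had more than 1 tested probe set, and the log2 changes of a gene's probe sets lay a median of 0.18 apart. The gap was over 0.3 in 4 genes, hsp90ab1.S, fkbp2.L, dnaja1.L and dnajc8.S.

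A wide spread among the controls was also seen in other chaperone genes. In 11 of 133 tested probe sets (8.27%) the control arrays were more than 0.5 apart on the log2 scale, against 7.42% of all tested probe sets. In all 11, control array 1 was highest and control array 3 lowest, as in 67.1% of the 1446 such probe sets over the array. In 7 of the 11 the depleted arrays lay inside the control range, as in 829 of the 1446 over the array. The 11 include dnajc2.S on 2 probe sets, hspa4.L and hspa4.S on 1 each, dnaja1.L on its dimmer probe set and hsp90b1.L, at 1926, 1743 and 1337. Without control array 3 the dimmer probe set of dnaja1.L, 1 of hsp90ab1.S, 1 of cct2.S, dnajc27.L and txndc12.S passed the threshold.

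**Figure D4:**
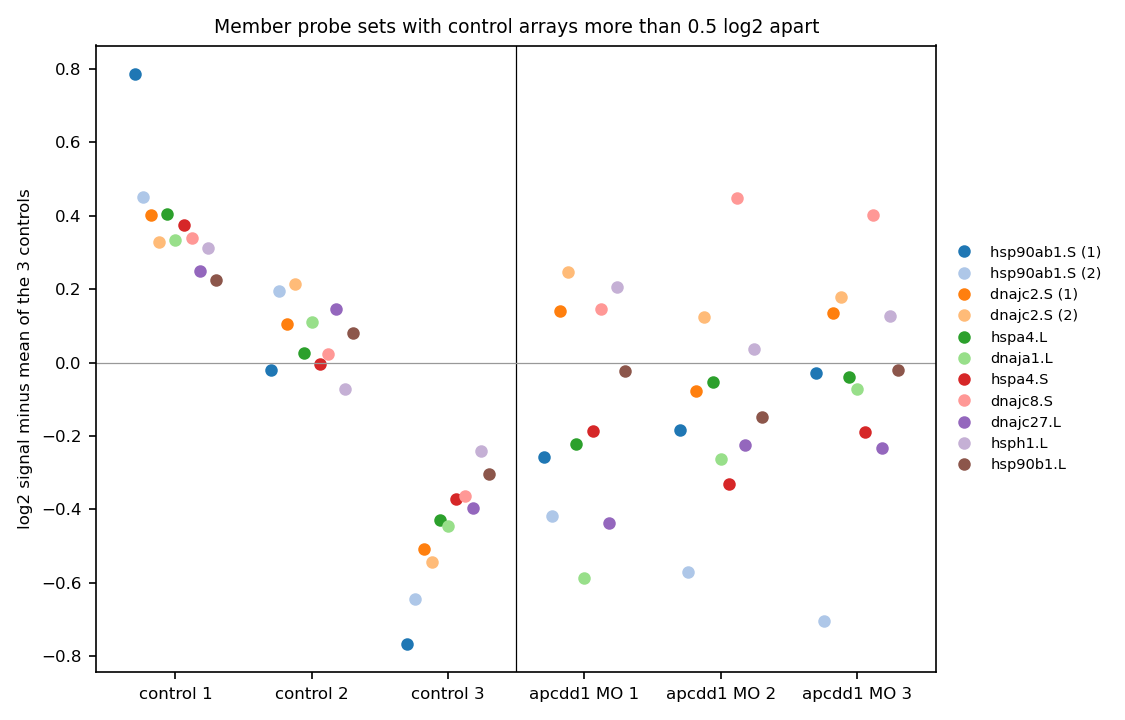
Log2 signal minus the mean of the 3 control arrays (vertical axis) on each array (horizontal axis) for the 11 chaperone probe sets whose control arrays were more than 0.5 apart, one colour each; numbers in brackets tell apart 2 probe sets of one gene. Control 1 is highest and control 3 lowest of the controls in all 11.

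In mitochondria 0 of 12 tested probe sets were called in limma, against 6.62% of all tested probe sets, and the median log2 change was -0.04. An unadjusted p under 0.05 in limma was seen in 2 (16.7%, against 19.0% of all tested probe sets), hspa9.S and dnajc19.L. Both were called with arrays weighted by quality, 2 of 12, against 4449 of all 19484 tested probe sets in that fit. The chaperonin genes overlapped between groups. hspd1.S, which encodes HSP60, read 1453, 1415 and 1263 against 1241, 1296 and 1395 on its brighter probe set, with overlap (-0.07, 95% interval -0.23 to 0.09). hspe1.L, which encodes HSP10, read 1176, 1151 and 1154 against 1194, 1181 and 1143 (0.02, 95% interval -0.10 to 0.13). The HSP70 gene hspa9 had changes of -0.14 ± 0.09 for hspa9.L and -0.25 ± 0.09 for hspa9.S, the latter from 337, 320.3 and 285 to 239, 284 and 269.9 without overlap (limma adjusted p = 0.16). dnajc19.L, whose protein is a J protein of the import motor, went the other way, from 1307, 1261 and 1361 to 1499, 1482 and 1371 (0.15 ± 0.06, limma adjusted p = 0.21). dnaja3.L, dnajc4.L, dnajc28.L and fkbp8.L had changes between -0.06 and 0.03, and dnajc11.S one of 0.14 ± 0.09.

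Several of the called genes have a homeolog that was not called, so the difference between homeologs was tested itself, a test added after these values were seen. For each gene with both homeologs tested, the log2 difference between the brightest probe set of each was compared between groups in limma, over 1385 genes. The change differed between homeologs in 6 of 23 chaperone genes, against a background of 12.6% of all pairs. The difference in log2 change, L minus S, was -0.72 ± 0.09 (SE) for fkbp1a, -0.61 ± 0.07 for pdia6, -0.55 ± 0.08 for fkbp2 and -0.45 ± 0.08 for cct7 (adjusted p = 6.8e-04, 4.6e-04, 0.0013 and 0.0038 in limma). For tcp1 it was -0.36 ± 0.07 and for txndc12 -0.59 ± 0.14 (adjusted p = 0.010 and 0.018 in limma). In all 6 the L homeolog was the lower of the pair in its change, but the share with this direction among all called pairs was not counted. For cct4 the difference of 0.13 (95% interval -0.03 to 0.28) was not called. The txndc12 difference lost its call in 3 of 9 alternative fits, with adjusted p up to 0.082. It rests on the brighter probe set of txndc12.S. A dimmer one, left out by the filter, changed by 0.01 in the fit without it. The dimmer probe set of txndc12.L changed by 0.04. For fkbp1a the difference rests on the brighter probe set of fkbp1a.L, which changed by -0.74. The dimmer one changed by -0.45 and fkbp1a.S by -0.02. The fkbp2 difference rests on the brighter probe set of fkbp2.L. The dim one changed by -0.05, close to fkbp2.S at -0.07. Probe sets of homeologs can bind each other's RNA, which this test does not measure.

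**Figure D5:**
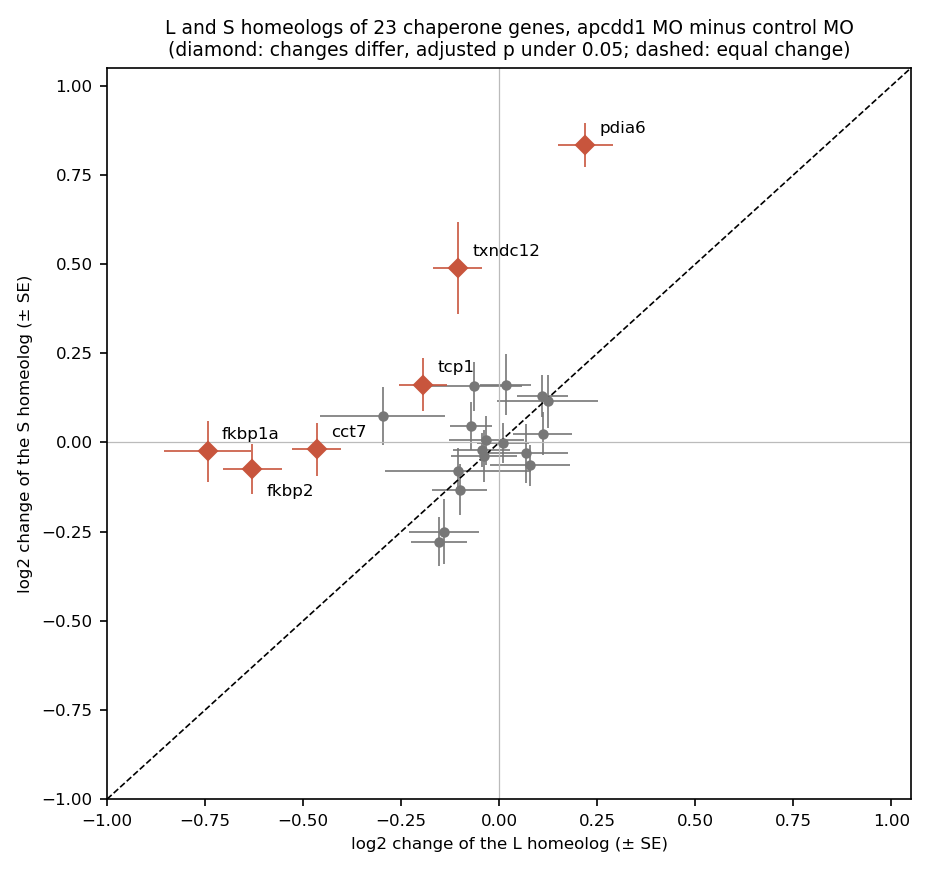
Log2 change (apcdd1 MO minus control MO) of the L homeolog (horizontal axis) and S homeolog (vertical axis) of 23 chaperone genes, with bars of ± SE. Diamonds mark the 6 genes whose homeologs changed differently in limma, all above the dashed line of equal change, a direction not counted over all pairs. Of the other 17, dnajc27 (L at -0.30, S at 0.07) lies as far from the line as tcp1 but was not called (limma adjusted p = 0.12).

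Genes that work with these chaperones were taken from 7 lists by known function, with each gene read on its brightest probe set. Of 107 tested genes 5 were lower and 3 higher, 7.48%, against 7.28% of all tested genes read this way. The count was 3 without control array 2 and 5 without control array 1, depleted array 1 or depleted array 2. Among HSP90 and HSP70 cochaperones, 2 of 16 fell and 0 rose, 12.5%, against the same 7.28%. ahsa1.S, which encodes an activator of the HSP90 ATPase, went from 1041, 1041 and 1076 to 886, 873 and 929. stub1.L, the gene of a ubiquitin ligase that marks chaperone clients, went from 134, 132 and 139 to 89.6, 105 and 105 (limma adjusted p = 0.037 and 0.018). In both the groups were apart. The homeolog ahsa1.L overlapped between groups and was not called (0.05 ± 0.09 SE). In the heat shock factor list 3 genes were tested, and hsf2.L rose, from 268, 243 and 266 to 367, 307 and 323 (0.36 ± 0.08 SE, limma adjusted p = 0.036). The others on it, hsbp1.L and hsbp1.S, encode a protein that binds such a factor and were not called (0.09 and 0.12).

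Cyclophilins are prolyl isomerases unrelated in sequence to FKBP proteins. Of 16 tested genes on their list 2 fell and 0 rose, 12.5%, against 7.28% of all tested genes read this way. The list includes pin4.L, a prolyl isomerase gene that is not a cyclophilin gene. ppia.L, the gene of the cytosolic cyclophilin A, went from 1079, 1027 and 1012 to 745, 757 and 831. ppib.S, the gene of the ER cyclophilin B, went from 1501, 1407 and 1458 to 1162, 1152 and 1139 (log2 changes -0.42 ± 0.06 and -0.34 ± 0.05 SE, limma adjusted p = 0.0039 and 0.0045). Depleted arrays were below all controls in both, and also on a dimmer probe set of ppia.L that was not called (-0.16 ± 0.07). Their homeologs were not called, ppib.L with overlap (0.02 ± 0.06 SE) and ppia.S with all depleted arrays below the controls (-0.31 ± 0.13 SE).

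In the unfolded protein response, the signalling that raises ER chaperone genes when proteins misfold, 1 of 13 tested genes rose and 1 fell. The called share was 15.4%, against 7.28% of all tested genes read this way. In 10 of the 13 the log2 change was negative, against 4211 of 8216 genes over all, and the median was -0.11. In 6 the unadjusted p was under 0.05, against 20.4% of all genes read this way, and the same number had groups that did not overlap (5 below, 1 above), against 27.3%. manf.S, which encodes a luminal protein known to be induced by ER stress, rose from 685, 645 and 660.4 to 880.0, 809.7 and 859 (0.36 ± 0.06 SE, limma adjusted p = 0.0070). ppp1r15b.L, which encodes a partner of the phosphatase that reverses the translation block, fell from 366, 375 and 304 to 242, 236 and 259 (-0.50 ± 0.09 SE, limma adjusted p = 0.010). Both sets of arrays were apart. xbp1.L and herpud1.L had changes of -0.39 ± 0.12 and -0.37 ± 0.11, below all controls but not called (limma adjusted p = 0.084 and 0.077). Also below all controls and not called were mbtps1.L, the gene of a protease that activates ATF6 (-0.26 ± 0.07, limma adjusted p = 0.065), and sil1.L, the gene of an exchange factor of BiP (-0.21 ± 0.07, limma adjusted p = 0.15). atf4.L had a change of 0.00 ± 0.06.

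In the lists of ER oxidation, glycoprotein control and degradation (28 genes) and of prefoldin and tubulin cofactors (12 genes), 0 genes passed in limma. An unadjusted p under 0.05 was seen in 2 of the former and 0 of the latter list, against 20.4% of all genes read this way. The latter list includes txnl4a.S, which is neither a prefoldin nor a tubulin cofactor gene. Among mitochondrial import and protease genes 1 of 19 rose and 0 fell, 5.26%, against 7.28% of all tested genes read this way. The gene was pam16.S, whose protein pairs with the J protein of the import motor. It went from 278, 295 and 318 to 395, 399.5 and 352 (0.36 ± 0.08 SE, limma adjusted p = 0.026). Its brighter homeolog pam16.L had all depleted arrays below the controls and was not called (-0.09 ± 0.07 SE).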

How the data were processed

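One array per batch was read on an Affymetrix Xenopus laevis array. The authors deposited linear signal intensities, and MAS5 appears, without a version, among the tools in the submitters' processing notes. The scaling target and detection calls are not given in the sources used here. The 160 control probe sets were set apart, and log2 of the signal was taken above a floor of 1, which touched 0 values. Gene symbols came from the platform annotation, and 156 of 158 members were found in a RefSeq gene table by gene number, with 0 symbols changed. Probe sets under the 40th percentile of the mean log2 signal were left out (12990 of 32474). The comparison used lmFit and a trended, robust eBayes of limma 3.58.1 (R 4.3.3) over all 19484 tested probe sets, with Benjamini-Hochberg adjustment; intervals are 95% intervals of the same fit. Precision is limited by 3 arrays per group, for which no permutation test can give less than p = 0.1. The fit was tested on simulated data.

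The chaperones, their compartments, the 7 related lists and the markers were chosen with earlier results of these data known. Named genes are every called member, all CCT and HSP60/HSP10 subunits, homeologs and other probe sets of called genes, and called related genes. The brightest gene of each family is named too, except in the cytosolic thioredoxin-related family. The 2 tested probe sets of that family were not called, with log2 changes of -0.23 and 0.10. Other genes are named as examples, chosen after their values were seen. Alternatives were other normalizations, pseudocounts of 16 and 64, other filters, variance and array weighting, a replicate block and leaving out each array. No sequences are shown and no coordinates are given, since no genome was used.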

Additional observations from a re-analysis of the deposited data

How the results depend on the processing

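Of the 10 called chaperone probe sets, 5 were called under all 15 alternative settings (tmx4.L, pdia6.S, fkbp2.L, cct7.L and the brighter probe set of fkbp1a.L), with adjusted p up to 0.021 in limma, and the other 5 (cct4.S, cct6a.S, hspa1l.S, hspbp1.L and the dimmer probe set of fkbp1a.L) lost their call under some; 0 calls changed sign. Array weights gave 14 lower and 14 higher chaperone probe sets, with 19 in the cytosol, 7 in the ER and 2 in mitochondria, 21 related genes and 4449 probe sets in all; the cause was not tested. The replicate block, which rests on a shared number only, gave 4 lower and 1 higher chaperone probe sets, 2 of them in the cytosol. Same-numbered arrays did not deviate together (correlations of 0.05, 0.02 and -0.27). The fit without trend and robust moderation gave 1 higher and 4 in the cytosol. Leaving out single arrays gave 4 to 9 lower and 1 to 2 higher, 2 to 7 in the cytosol, 3 to 4 in the ER, 0 to 0 in mitochondria, 3 to 8 related genes and 669 to 1430 probe sets in all; the counts were lowest without control 2 (4 lower, 669 in all) and without depleted 3 (4 lower, 739 in all). For the homeolog test, chosen after seeing the data, that range was 5 to 8 genes, and the count was 6 under the block. Counts with 1 symbol only, also chosen after seeing the data, were 8 and 2. Other counts stayed within 1.5 times the main ones.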
